A study of Mus musculus with 9 samples.

Results

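Small nucleolar RNAs (snoRNAs) guide methylation and pseudouridylation of ribosomal and spliceosomal RNA, and in mammals most of them are cut out of the introns of a host gene after splicing. The 8 transcripts described here, Snhg1, Snhg3, Snhg6, Snhg8, Snhg10, Snhg12, Snhg14 and Gas5, are noncoding hosts. They were taken by gene name from the 24318 genes of each deposited table, and all 8 had a row and passed the minimum of a mean FPKM of 1 in both. The list was chosen by the measured response of these same libraries, so the values of the 8 hosts are given as a description and support no claim about hosts in general.

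The libraries came from N2A, a mouse neuroblastoma cell line, transfected with scramble siRNA or with siRNA against EXOSC3 or DDX1, with 3 libraries in each group. No other treatment was named, and the scramble cells were labelled wild type. EXOSC3 is a noncatalytic subunit of the RNA exosome, the complex that degrades RNA from the 3′ end and trims snoRNA precursors, and DDX1 is a DEAD box RNA helicase of the tRNA ligase complex. All results are from 1 cell line with residual target mRNA, and the same 3 scramble libraries served both comparisons.

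Exosc3 lay at 6.01 to 7.68 FPKM in the siEXOSC3 libraries against 42.7 to 45.8 in scramble, and Ddx1 at 28.0 to 34.8 in the siDDX1 libraries against 119 to 129.6. Of 9 neuroblastoma markers, 8 had a mean of at least 1 FPKM, and their sum was 551 to 588 FPKM in siEXOSC3, 364 to 418 in siDDX1 and 394 to 441 in scramble. Of 8 markers of other cell types, only Pecam1 and Mbp reached a mean of 1, Ptprc, Epcam and Krt18 were at or near 0, and the sum was 6.69 to 8.17 FPKM in scramble, 8.77 to 12.5 in siEXOSC3 and 7.66 to 8.41 in siDDX1. The part of these marker levels in the host values was not tested. FPKM scales fragments by transcript length and library size, and without counts the absolute depth is unknown. Low genes step by the worth of a single fragment, which gave a relative depth between 1 and 1.34 in the siEXOSC3 table and between 1 and 1.30 in the siDDX1 table.

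A classical noncoding host starts transcription within a run of pyrimidines, the 5′ terminal oligopyrimidine (TOP) motif that it shares with ribosomal protein genes. The RefSeq promoter table (GRCm38.p6) held 7 of the 8 hosts, with 2 start sites for Gas5 and no entry for Snhg6. Every one of these windows had a single exact match in NCBIM37, the mm9 assembly of the deposited files, and the coordinates below are from that match. Each line shows 40 bases before and 25 bases from the start, on the transcribed strand. Capitals mark the first 6 transcribed bases and, where present, the letters TATA (overlapping copies merged) between 40 and 20 bases before the start.
Snhg1, chr19:8797937-8798001, plus strand: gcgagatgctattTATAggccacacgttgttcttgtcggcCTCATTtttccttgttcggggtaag
Snhg8, chr3:123211230-123211294, minus strand: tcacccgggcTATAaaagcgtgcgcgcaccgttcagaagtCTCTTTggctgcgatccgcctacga
Snhg12, chr4:131864553-131864617, plus strand: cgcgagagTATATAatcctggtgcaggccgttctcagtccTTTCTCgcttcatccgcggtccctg
Gas5, start 2, chr1:162965257-162965321, plus strand: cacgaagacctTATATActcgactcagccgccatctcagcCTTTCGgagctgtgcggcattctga
Gas5, start 1, chr1:162964692-162964756, plus strand: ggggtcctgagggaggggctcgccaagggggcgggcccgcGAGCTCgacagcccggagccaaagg
Snhg3, chr4:131909577-131909641, minus strand: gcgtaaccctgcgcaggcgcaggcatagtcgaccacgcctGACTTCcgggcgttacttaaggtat
Snhg10, chr12:106270465-106270529, minus strand: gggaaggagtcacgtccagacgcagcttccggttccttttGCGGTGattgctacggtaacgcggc
Snhg14, chr7:67595039-67595103, minus strand: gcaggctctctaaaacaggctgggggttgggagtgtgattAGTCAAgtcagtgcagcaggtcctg
The first 4 windows hold both features, at least 5 pyrimidines among the first 6 bases and a TATA on the transcribed strand, whereas the last 4 hold neither. Over the first listed promoter of 27025 genes, 12.0% had at least 5 such pyrimidines, 5.67% had the TATA and 0.707% had both. That background takes a single start per gene, whereas both listed starts of Gas5 are shown, so the shares are not a like comparison for Gas5. These are letter matches only, and the opposite strand was not searched.

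In GENCODE vM1 (NCBIM37), Snhg1 spans chr19:8797986-8800932 with 2 annotated transcripts, and Gas5 spans chr1:162964553-162968670 with 25. Snhg3 lies at chr4:131903929-131909601 and Snhg12 at chr4:131864593-131866939, with 5 and 6 transcripts. The other 4 hosts have no entry there and were placed through RefSeq. Counted by position, the hosts enclose 232 snoRNAs, 206 of them in Snhg14, 9 in Gas5, 8 in Snhg1, 4 in Snhg12, 2 in Snhg3 and 1 each in Snhg6, Snhg8 and Snhg10. The strand was matched only for Snhg1, Snhg3, Snhg12 and Gas5, and not for the 4 hosts placed through RefSeq. All 8 snoRNAs of Snhg1 and all 9 of Gas5 overlap an exon of at least 1 annotated transcript, so that in a host row quantified with retained-intron models, snoRNA precursor and spliced host cannot be told apart.

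In scramble cells the hosts covered a wide range of levels. Snhg1, the host of Snord22 and of a group of methylation guides, was the most abundant at 888 ± 104 FPKM (SD, n = 3, as for every ± below), above 99.0% of the tested genes. Snhg12, Snhg6 and Snhg3 followed at 245 ± 41.8, 228 ± 40.4 and 172 ± 17.7 FPKM, and each of these overlapped its neighbor in the order. Snhg8 came next at 75.3 ± 2.32, then Gas5 at 59.2 ± 5.38 and Snhg10 at 16.6 ± 2.47, with no overlap between successive hosts. Snhg14, the long transcript that hosts the imprinted Snord116 and Snord115 clusters, was lowest at 3.14 ± 0.375 FPKM, above 14.7% of the tested genes. The same order held in the siDDX1 table, where the scramble libraries were scaled by a factor of about 1.01.

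**Figure D1:**
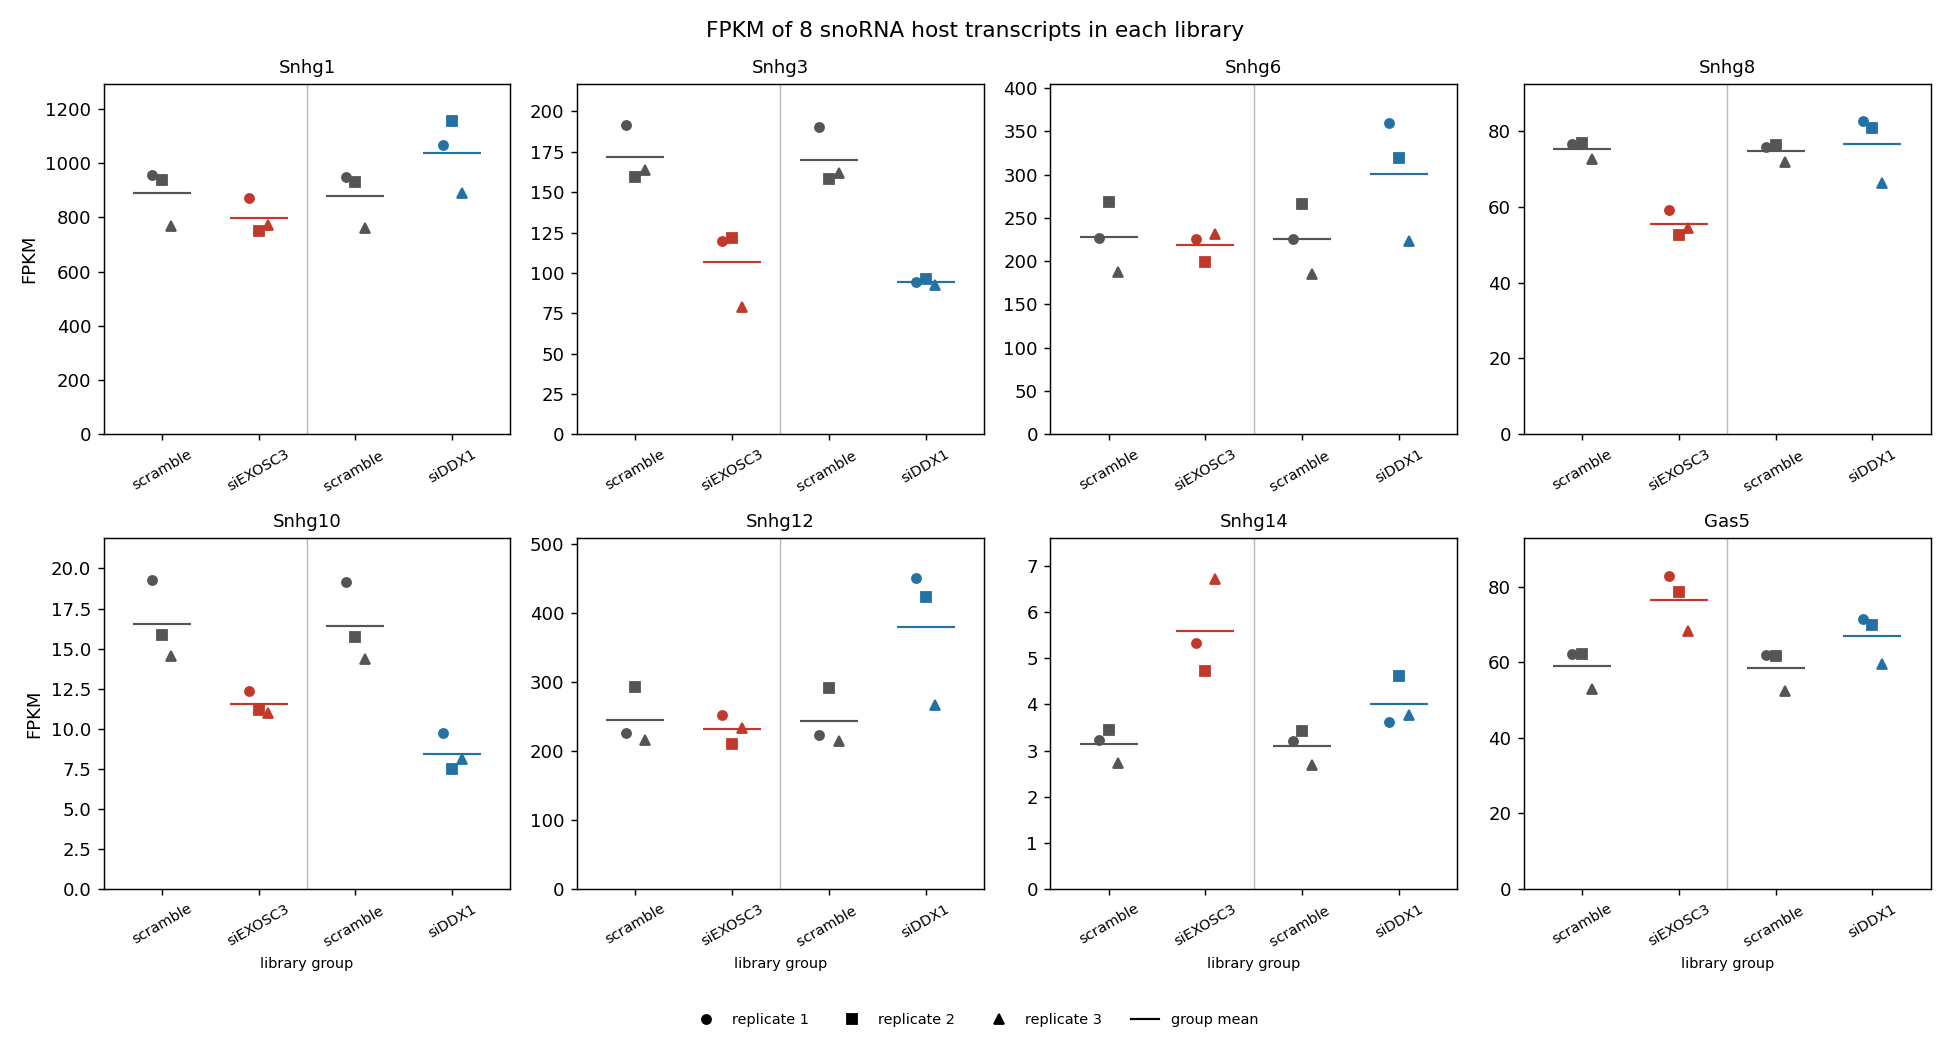
FPKM of each host (vertical axis from 0, linear, own scale per panel) in every library. The left pair of groups in each panel is the siEXOSC3 table and the right pair the siDDX1 table, symbols mark the replicate and lines the group mean. Snhg3 and Snhg10 lie below scramble in all libraries of both knockdowns, while Snhg14 lies above scramble in all of them.

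Snhg3 and Snhg10 were lower than scramble in every library of both knockdowns. Fold changes are from limma on log2(FPKM + 1), within a table, and a gene is named as called where its Benjamini-Hochberg adjusted p over all tested genes was under 0.05. In bulk RNA such a difference does not separate fewer expressing cells from less RNA per cell. Snhg3, host of the H/ACA snoRNAs Snora73a and Snora73b that act in ribosomal RNA processing, read 119.6, 122 and 79.0 FPKM in siEXOSC3 against 192, 159 and 164 in scramble. It read 94.0, 96.1 and 92.2 in siDDX1 against 190.3, 158 and 162 in the scramble columns of that table. In neither comparison did the groups overlap, and the siDDX1 libraries were almost equal while siEXOSC3 replicate 3 lay well below its group. The siEXOSC3 mean was 62.3% ± 14.0 of scramble, a log2 fold change of -0.70 (SE 0.160), and the siDDX1 mean was 55.3% ± 1.12, a log2 fold change of -0.84 (SE 0.0788). Without scramble replicate 1 the siEXOSC3 difference was -0.62 and was no longer called.

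Snhg10, host of the Cajal body RNA Scarna13, was at 12.4, 11.2 and 11.0 FPKM in siEXOSC3 and at 19.3, 15.8 and 14.5 in scramble. Its siDDX1 values were 9.71, 7.48 and 8.13 FPKM against 19.2, 15.7 and 14.4. The knockdown libraries were again below all scramble libraries. Relative to scramble, siEXOSC3 stood at 69.5% ± 4.44 (log2 fold change -0.48, SE 0.106) and siDDX1 at 51.4% ± 7.00 (-0.88, SE 0.123).

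Snhg8, host of the pseudouridylation guide Snora24, was lower in siEXOSC3, at 59.1, 52.7 and 54.4 FPKM against 76.5, 76.8 and 72.6 in scramble, with no overlap. This was 73.6% ± 4.43 of scramble and a log2 fold change of -0.44 (SE 0.0670). In siDDX1 its values were 82.6, 80.7 and 66.3 FPKM, on both sides of scramble at 75.9, 76.2 and 71.8, with a mean of 102.6% ± 12.0.

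Snhg14 and Gas5 were higher in siEXOSC3. Snhg14 read 5.33, 4.72 and 6.71 FPKM against 3.24, 3.45 and 2.72, which is 178% ± 32.5 of scramble. On the log2(FPKM + 1) scale, which understates the change of a gene this low, the difference was 0.66 (SE 0.128). In siDDX1 Snhg14 read 3.62, 4.62 and 3.77 FPKM against 3.21, 3.43 and 2.69, or 129% ± 17.5 of scramble (0.28, SE 0.113). Its libraries lay above scramble in both comparisons, although in siDDX1 the gap between the nearest libraries was small and the difference was not called.

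Gas5, a transcript named for its accumulation in growth-arrested cells and a known target of nonsense-mediated decay, read 82.9, 78.7 and 68.3 FPKM in siEXOSC3 against 62.3, 62.2 and 53.0. The siEXOSC3 libraries were all above scramble, at 129.5% ± 12.7 and a log2 fold change of 0.37 (SE 0.0951). The call was lost when siEXOSC3 replicate 1 (0.31), scramble replicate 1 (0.41) or scramble replicate 3 (0.29) was left out. In siDDX1 it read 71.4, 70.0 and 59.6 FPKM against 61.8, 61.8 and 52.3, and replicate 3 fell within the scramble range (114% ± 11.0, log2 fold change 0.19, SE 0.0936).

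Snhg1, Snhg6 and Snhg12 stayed within or near the scramble range in siEXOSC3 and were higher on average in siDDX1 without being called in either. Snhg1 was at 873, 750.0 and 771 FPKM in siEXOSC3 against 956, 939 and 769, a mean of 89.9% ± 7.40. In siDDX1 it was at 1067, 1155 and 889.5 against 949, 932 and 759.5, a mean of 118% ± 15.4 and a log2 fold change of 0.24 (SE 0.130). Only siDDX1 replicate 3 lay within the scramble range.

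Snhg6, host of the methylation guide Snord87, read 226, 199.5 and 232 FPKM in siEXOSC3 and 227, 268 and 187 in scramble, which overlap throughout. Its siDDX1 values of 359.6, 319.7 and 224 FPKM stood against 225, 266 and 185 (133% ± 30.9, log2 fold change 0.40, SE 0.185). Snhg12, host of Snora16a, Snora44, Snora61 and Snord99, read 251, 209.6 and 234 FPKM in siEXOSC3 against 226, 293 and 217. In siDDX1 it reached 450.0 and 424 FPKM in replicates 1 and 2 but 267 in replicate 3, against 224, 291 and 214 (157% ± 40.7, log2 fold change 0.62, SE 0.199). For all 3 hosts replicate 3 was the lowest siDDX1 library and the one that overlapped scramble. Without it their log2 fold changes were 0.34 for Snhg1, 0.60 for Snhg6 and 0.86 for Snhg12, and all of them were called, as was Gas5 at 0.27. That fit called 31.7% of all tested genes, against 10.6% with all libraries. Other libraries moved the values the other way, to 0.13 for Snhg1 and 0.11 for Gas5 without scramble replicate 3, to 0.15 for Snhg1 without siDDX1 replicate 2 and to 0.26 for Snhg6 without siDDX1 replicate 1. With quantile normalization they were 0.0041 for Snhg1, 0.31 for Snhg6 and 0.54 for Snhg12, and none was called.

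**Figure D2:**
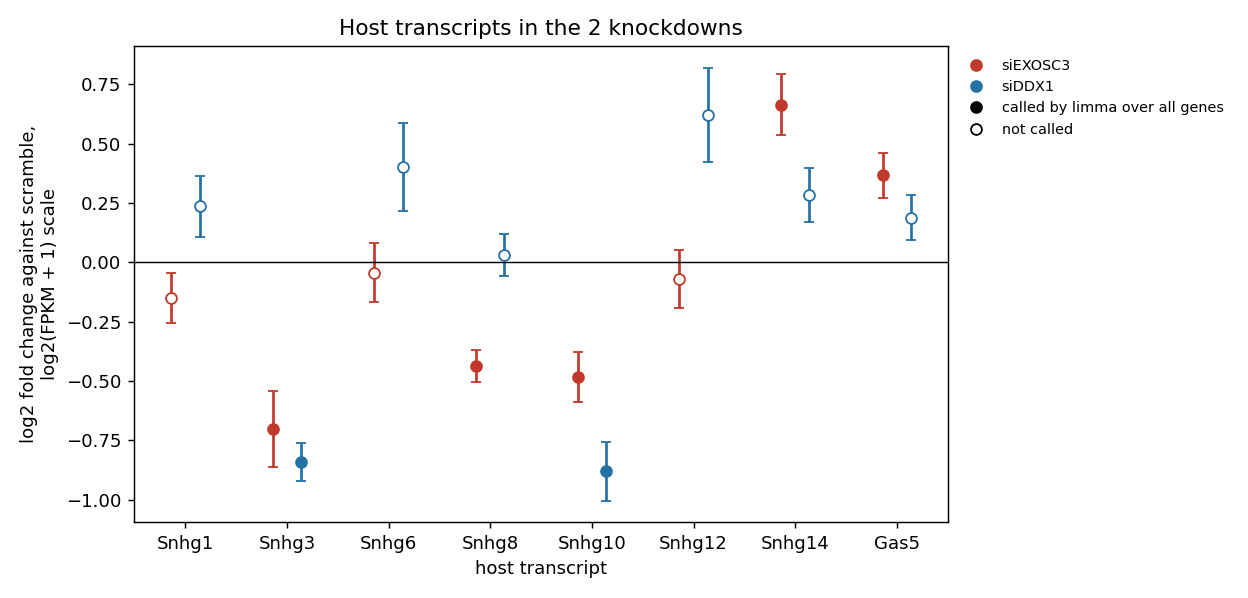
log2 fold change of each host against the scramble libraries of its own table, on the log2(FPKM + 1) scale, with bars for the standard error (3 libraries against 3). Filled points were called by limma over all genes of a table. Snhg3 and Snhg10 are negative in both knockdowns, Snhg8 is negative in siEXOSC3 and 0.03 in siDDX1, and Snhg12 is at 0.62 in siDDX1 with a wide error.

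Among the 8 hosts, 5 were called in siEXOSC3 cells, 2 higher and 3 lower. This stands against a background of 32.4% of the 11242 genes tested, 16.7% higher and 15.7% lower. The same 5 were the hosts whose groups did not overlap, which held for 49.7% of all tested genes. In siDDX1 cells 2 were called, both lower, against a background of 10.6% of 11104 genes, 5.61% higher and 5.03% lower. There 3 hosts did not overlap scramble, 1 above and 2 below, beside 34.7% of all tested genes. Since these contrasts chose the list, nothing is read from the counts. The median log2 fold change of the 8 was -0.11 in siEXOSC3 and 0.21 in siDDX1, where the medians of all tested genes were -0.01 and -0.00059. With quantile normalization the median of the 8 in siDDX1 was 0.07.

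Within each group 1 library held the lowest value of most hosts. Scramble replicate 3 held the lowest scramble value of 7 of the 8 hosts, siEXOSC3 replicate 2 the lowest siEXOSC3 value of 5, and siDDX1 replicate 3 the lowest siDDX1 value of 6. The median deviation of the 8 from their group mean was -0.16, -0.08 and -0.18 (log2) in these libraries, while that of all tested genes was within 0.01 of 0. Each of the 3 was also the deepest of its group, at a relative depth of 1.34, 1.18 and 1.30 against 1.21 and 1.11 for the other scramble, 1.00 and 1.05 for the other siEXOSC3, and 1.06 and 1.13 for the other siDDX1 libraries. The part of depth in these values was not tested. These libraries were picked as the lowest for most hosts, so the negative deviations of the 8 are no separate result. Most of the 8 are abundant, and genes of like level were not compared. Protein-coding hosts, read below, also depended on siDDX1 replicate 3. Over the 9 libraries Snhg6 and Snhg12 had the most alike profiles (Pearson's r = 0.963), followed by Snhg1 and Snhg12 (0.884) and Snhg1 and Snhg6 (0.876). Next came Snhg3 and Snhg10 (0.864), Snhg1 and Snhg8 (0.801) and Snhg14 and Gas5 (0.694). Of the 28 pairs of hosts 14 had a negative r, down to -0.69 for Snhg3 and Snhg14 and -0.67 for Snhg8 and Snhg14. Group differences and library depth are shared by these points, so the values describe likeness only.

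The nonmember genes whose profile was most like the mean of the 8 hosts over the 9 libraries were Pik3c3 (r = 0.967), Psmb1 (0.956), Shfm1 (0.945), Snx1 (0.945) and Trappc3 (0.931).

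Of the 232 snoRNAs inside the hosts, 12 had a row of their own in the deposited tables, and of these only Scarna13 was above 0. The other 11 were listed at 0 in all 9 libraries. Of all 114 snoRNA and scaRNA rows in the tables, 107 were listed at 0 as well, so a listed 0 is no measure of the RNA. Scarna13 is a scaRNA, a guide of the Cajal body, where spliceosomal RNAs are modified. It lies in Snhg10, from 930 to 1204 bases downstream of its start, and is shown because it is the only hosted RNA with a measurement. Capitals mark the letters TGAG (84 to 87), a motif that can retain RNA in Cajal bodies on binding WDR79, and the ACA before the 3′ end (270 to 272) that gives the H/ACA class its name. Both are letter matches and not shown to be in use.
Scarna13, NCBIM37 chr12:106269285-106269559, minus strand, 275 bases: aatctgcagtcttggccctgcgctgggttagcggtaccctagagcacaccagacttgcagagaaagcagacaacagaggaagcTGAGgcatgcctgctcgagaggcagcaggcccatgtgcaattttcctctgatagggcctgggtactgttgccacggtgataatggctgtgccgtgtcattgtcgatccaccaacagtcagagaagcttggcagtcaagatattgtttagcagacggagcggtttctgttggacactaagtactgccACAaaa

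Scarna13 rose in both knockdowns while its host was lower. It read 1972, 1839 and 1806 FPKM in siEXOSC3 against 1051, 1266 and 1016 in scramble, an increase to 169% with a log2 fold change of 0.76 (SE 0.103, limma, Benjamini-Hochberg adjusted p = 0.00233). In siDDX1 it read 1883, 1914 and 1639 against 1043, 1257 and 1004, an increase to 165% with a log2 fold change of 0.72 (SE 0.120, adjusted p = 0.0126). All knockdown libraries were above all scramble libraries. The siEXOSC3 call held without each library in turn, whereas the siDDX1 call was lost without siDDX1 replicate 2 (adjusted p = 0.0541), scramble replicate 1 (0.0781) or scramble replicate 3 (0.0663), with log2 fold changes of 0.66 to 0.69.

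Set against its host, Scarna13 read 159.6, 164 and 164 times the FPKM of Snhg10 in siEXOSC3 and 194, 256 and 202 times in siDDX1, but 54.4, 79.9 and 69.9 times in scramble. On the log2 scale the mean ratio was higher by 1.27 in siEXOSC3 and by 1.68 in siDDX1. FPKM divides by length, and the length correction for so short a transcript is uncertain, so the ratio of levels can be compared between libraries but not read as molecules per molecule. GENCODE vM1 also lists copies named Scarna13 on chromosomes 2 and X, and reads shared with such copies cannot be told apart.

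**Figure D3:**
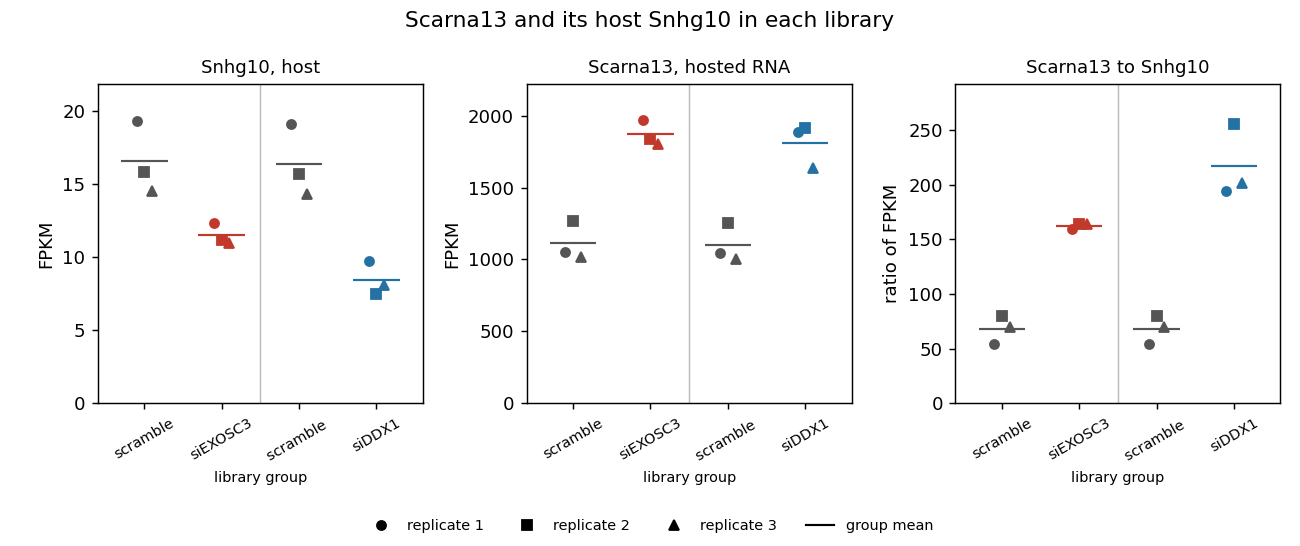
FPKM of Snhg10 and of Scarna13 and the ratio of the latter to the former in every library (linear axes from 0, symbols mark replicates, lines group means). The ratio is 54.4 to 79.9 in scramble, 159.6 to 164 in siEXOSC3 and 194 to 256 in siDDX1, with no overlap.

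Genes that share a locus with a host were examined next, because the libraries did not keep the strand. Rcc1, which encodes the nucleotide exchange factor of the GTPase Ran, overlaps 5592 bases of Snhg3 on the same strand. Reads there could belong to either gene, so the levels of this pair are not independent measurements. Rcc1 fell in siEXOSC3, with 22.3, 27.6 and 15.4 FPKM against 34.8, 31.0 and 33.7 (log2 fold change -0.62, SE 0.173, limma adjusted p = 0.0275). That call was lost without siEXOSC3 replicate 1 or any 1 of the 3 scramble libraries, with adjusted p-values of 0.0589 to 0.0916. Without siEXOSC3 replicate 3, its lowest library, the log2 fold change of Rcc1 was -0.40. In siDDX1 it read 30.2, 26.8 and 34.2 FPKM against 34.5, 30.8 and 33.3 (-0.11, SE 0.0919, adjusted p = 0.433). The ratio of Snhg3 to Rcc1 was 5.37, 4.41 and 5.12 in siEXOSC3 and overlapped scramble at 5.52, 5.13 and 4.85, with replicate 2 below all scramble libraries. In siDDX1 it was 3.11, 3.58 and 2.70, below all scramble libraries and with a log2 difference of -0.73.

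Snrpn encodes a core spliceosomal protein and overlaps Snhg14 on the same strand within their imprinted locus, so reads there could belong to either gene. Snrpn also rose in siEXOSC3. Its values were 16.4, 14.5 and 18.0 FPKM against 8.85, 8.93 and 8.52, a log2 fold change of 0.82 (SE 0.0878, limma adjusted p = 9.97e-04). In siDDX1 it was at 9.89, 10.1 and 8.79 against 8.86, 8.95 and 8.49 (0.12, SE 0.0773, adjusted p = 0.336). The ratio of Snhg14 to Snrpn overlapped scramble in both knockdowns, at 0.325, 0.327 and 0.373 in siEXOSC3 against 0.366, 0.387 and 0.320. In the siDDX1 table it was 0.365, 0.456 and 0.429 against 0.363, 0.383 and 0.317. Snurf, whose coding sequence lies in the same transcript as that of Snrpn, stayed below 1 FPKM. Ube3a, on the opposite strand within the span of Snhg14, was at 104% of scramble in siEXOSC3 and 96.6% in siDDX1.

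**Figure D4:**
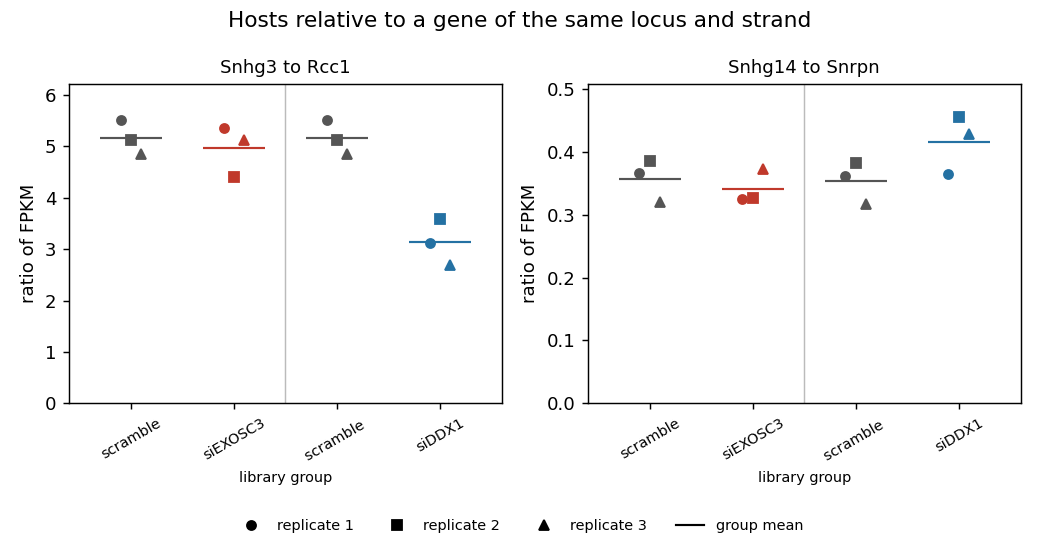
Ratio of FPKM of Snhg3 to Rcc1 and of Snhg14 to Snrpn in every library (linear axes from 0, symbols mark replicates, lines group means). The genes of each pair overlap on the same strand, so some reads could belong to either. The Snhg3 ratio is 2.70 to 3.58 in siDDX1 and 4.41 or more elsewhere, and the Snhg14 ratios overlap in all groups.

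Slc3a2, the heavy chain of an amino acid transporter, starts 126 bases from Snhg1 on the opposite strand. It was at 95.8% of scramble in siEXOSC3 (adjusted p = 0.524) and rose to 120.0% in siDDX1 (log2 fold change 0.26, SE 0.0604, adjusted p = 0.0326), a call that remained only without siDDX1 replicate 3. The ratio of Snhg1 to Slc3a2 overlapped scramble in both, with log2 differences of -0.09 and -0.03. Zbtb37 overlaps 428 bases of Gas5 on the opposite strand, so reads there could belong to either gene. It read 123% of scramble in siEXOSC3 (adjusted p = 0.0962) and 116% in siDDX1 (0.169), above all scramble libraries in both and called in neither. Phactr4, 2236 bases from Snhg3, was at 86.3% in siEXOSC3 (adjusted p = 0.0498, lost without any 1 of 5 libraries) and 91.4% in siDDX1 (0.230). Glrx5 beside Snhg10 was at 84.6% and 85.9% (0.145 and 0.0693), and Trnau1ap beside Snhg12 at 107% and 119% (0.267 and 0.0675). Mcmdc2 at Snhg6 and Prss12 at Snhg8 were below 1 FPKM and were not tested.

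The list of further noncoding hosts held 14 genes, of which 11 passed the minimum, Snhg9 and Snhg18 being listed at 0 and Snhg11 near 0. In siEXOSC3 1 rose and 6 fell, beside 16.7% and 15.7% of all tested genes, with a median log2 fold change of -0.32. Zfas1, a host of box C/D snoRNAs, fell to 63.7% of scramble (log2 fold change -0.64, SE 0.150, adjusted p = 0.0146), Snhg7 to 74.6% (-0.41, SE 0.104, 0.0185) and Snhg17 to 74.7% (-0.39, SE 0.0799, 0.00925). Rian, an imprinted host of tandem box C/D snoRNAs, rose from 1.29, 1.36 and 1.08 FPKM to 2.13, 2.07 and 2.63 (0.54, SE 0.115, 0.0102). Only Snhg17 and Rian remained called without each of the 6 libraries in turn, and the count was 2 without scramble replicate 1 or scramble replicate 2. In the 6 fits that left out a library, 14.3 to 43.5% of all tested genes were called, the lowest share being without scramble replicate 1 and the highest without siEXOSC3 replicate 2.

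In siDDX1 3 of the 11 fell and 0 rose, beside 5.03% and 5.61% of all tested genes, with a median of 0.02. The 3 were Dancr at 70.1% of scramble (-0.46, SE 0.0785, limma adjusted p = 0.0129), Snhg20 at 72.4% (-0.46, SE 0.0684, 0.00899) and Snhg4 at 75.4% (-0.40, SE 0.0749, 0.0174). Without scramble replicate 1 or scramble replicate 3 the count was 0, where 1.42% and 1.44% of all tested genes were called. Without siDDX1 replicate 3 it was 6, with 3 higher, where 31.7% of all tested genes were called and 16.4% were higher. Zfas1, at 875, 729 and 420.0 FPKM against 536, 519 and 377, stood at 141% of scramble with all libraries (log2 fold change 0.45, not called). Without siDDX1 replicate 3 its log2 fold change was 0.76 and it was called.

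The 38 protein-coding hosts, most of them ribosomal protein or translation factor genes, stood at a median of 0.0043 (log2 fold change) in siEXOSC3 (-0.06 with quantile normalization), with 3 called lower and none higher, which is 7.89% of the list beside 15.7% of all tested genes called lower. These were Ncl, or nucleolin (79.1% of scramble, adjusted p = 0.0172), Wdr43, a factor of ribosomal RNA processing (83.6%, 0.0418), and Hspa9, a mitochondrial chaperone (84.2%, 0.0416). The list had 0 calls without siEXOSC3 replicate 1, scramble replicate 1 or scramble replicate 2. In siDDX1 limma called 0 of the 38 beside 10.6% of all tested genes, while 18 had an unadjusted p under 0.05 beside 30.1% of all. There 16 lay above all scramble libraries and the median log2 fold change was 0.28. Groups that did not overlap, in either direction, made up 34.7% of all tested genes. All 38 estimates were positive, from 0.02 to 0.53, but with quantile normalization 25 of 38 were, with a median of 0.03. Without siDDX1 replicate 3 the count was 26, all higher, beside 16.4% of all tested genes. The highest estimate was that of Rps20, a ribosomal protein gene, at 1888, 1611 and 1216 FPKM against 1094, 1135 and 994, which was picked out after its values were seen.

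Proteins that bind snoRNAs were read next. Of 18 snoRNP proteins and assembly factors, 3 fell in siEXOSC3, or 16.7% beside 15.7% of all tested genes called lower, and the median was -0.16. They were Nolc1 at 77.4% (log2 fold change -0.38, adjusted p = 0.0420), Nhp2 at 77.9% (-0.37, 0.0247) and Gar1 at 78.0% (-0.36, 0.0296). Nhp2 and Gar1 are core proteins of H/ACA particles and Nolc1 is a chaperone of snoRNPs. Leaving out siEXOSC3 replicate 1 or any 1 scramble library left 0 calls, and leaving out siEXOSC3 replicate 2 gave 9, in a fit that called 43.5% of all tested genes. Without siEXOSC3 replicate 3 Nolc1 was at -0.24. In siDDX1 only Pih1d1, a subunit of the assembly complex for box C/D particles, was called, or 5.56% of the list beside 5.61% of all tested genes called higher. It rose to 149.9% of scramble (0.56, SE 0.0785, adjusted p = 0.00751), without overlap and in all 6 fits that left out a library.

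Nonsense-mediated decay clears several spliced hosts, and 14 of its factors were listed. In siEXOSC3 5 fell and none rose (median -0.23), or 35.7% of the list beside 15.7% of all tested genes called lower and 32.4% called in either direction. They were led by the helicase Upf1 at 72.4% of scramble (-0.45, SE 0.0991, adjusted p = 0.0113), followed by Smg5 at 78.2% (-0.35, 0.0197), Smg9 at 78.6% (-0.32, 0.0182) and the exon junction protein Eif4a3 at 80.2% (-0.32, 0.0180). The count was 0 without scramble replicate 3, 1 without scramble replicate 1 or siEXOSC3 replicate 1, and 2 without scramble replicate 2. Leaving out siEXOSC3 replicate 2 raised it to 8, beside 43.5% of all tested genes. In siDDX1 limma called 0 of the 14 beside 10.6% of all tested genes, with 4 at an unadjusted p under 0.05 beside 30.1% of all and a median of -0.10. Without siDDX1 replicate 3 the count was 3, beside 31.7% of all tested genes. Gas5, a substrate of this pathway, had been higher in siEXOSC3, and the part of these factors in its level was not tested.

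**Figure D5:**
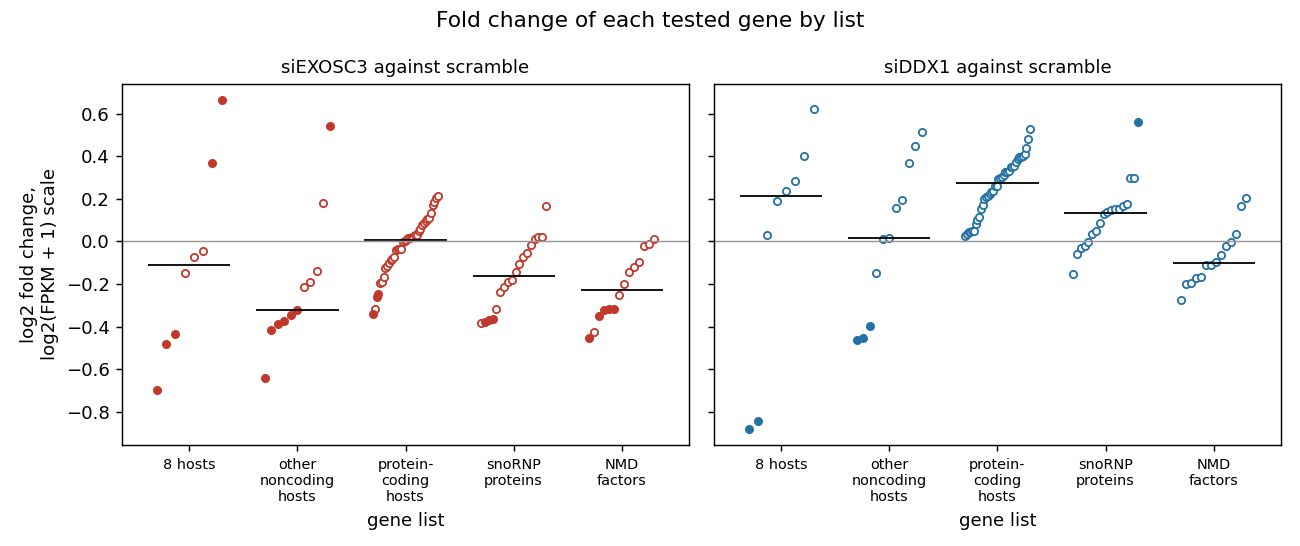
log2 fold change (log2(FPKM + 1) scale) of every tested gene of the 8 hosts and of each list, sorted within a list, filled where limma called the gene and with a line at the median. Protein-coding hosts lie around 0.0043 in siEXOSC3 and at or above 0.02 in siDDX1, where none was called and 25 of 38 stayed positive with quantile normalization.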

How the data were processed

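Per the labels and the study's methods, RNA from 3 plates of N2A cells per condition was depleted of ribosomal RNA, made into nondirectional libraries and sequenced as paired reads. The authors aligned with TopHat2 2.1.0 to mm9 and deposited FPKM values per gene from Cuffdiff 2.2.1 in 2 tables, each with 1 knockdown and the 3 scramble libraries; the gene annotation and scaling are not given in the sources used here. Each table was fitted alone with limma 3.58.1 (R 4.3.3, intensity trend) on log2(FPKM + 1), for genes whose mean FPKM reached 1, with Benjamini-Hochberg adjustment over all genes and a threshold of 0.05 (called). An exact permutation test of 3 libraries against 3 cannot go below p = 0.1 and was not used. Standard deviations are over 3 libraries, and the fit was tested on simulated data.

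The members and gene lists were chosen with earlier results of these data known. Genes named were the 8 hosts, hosted RNAs above 0, genes within 5 kb of a host, the targets, up to 4 called genes of largest change per list and comparison, and the 5 most alike profiles. Rps20 and Snhg15 were named after their values were seen, and Ptprc and other cell type markers for the label check; 2 genes under this rule or among the markers are not reported here. Rows carry older names for Snhg15 (Gm11974), Zfas1 (1500012F01Rik) and others, matched by RefSeq synonyms. Alternatives were a pseudocount of 0.1, no filter, a minimum mean of 5, quantile normalization, centring on the median, no trend, the replicate number as a block, a threshold of 0.01 and leaving out each library.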

Additional observations from a re-analysis of the deposited data

Results flagged for a closer look

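Among the 8 hosts, Scarna13 and the further noncoding hosts, 23 genes were screened for knockdowns in which every library of one lay on one side of the scramble mean and every library of the other on the opposite side. Snhg1 was one of 2 such genes, at 89.9% of the scramble mean in siEXOSC3 and 118% in siDDX1. Its siDDX1 replicate 3 (889.5 FPKM) lay just above the scramble mean of 880.0 and below 2 of the 3 scramble libraries, and with quantile normalization its siDDX1 log2 fold change went from 0.24 to 0.0041. The other was Snhg15, at 86.4% in siEXOSC3 and 111% in siDDX1. The difference between the knockdowns was not tested, and neither gene was called in either comparison.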

How the results depend on the processing

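Of the 8 hosts, Snhg3 and Snhg10 in siDDX1 and Snhg8, Snhg10 and Snhg14 in siEXOSC3 kept their direction and their call at the threshold of 0.05 in all alternative fits in which they were tested, 13 for each of them and 12 for Snhg14. At 0.01 Snhg10 in siEXOSC3 lost its call. Snhg3 in siEXOSC3 was called in 12 of 13 and Gas5 in 10 of 13, with the largest adjusted p at 0.0579 and 0.0817. No direction of a called host reversed. Quantile normalization brought the log2 fold change of Snhg1 in siDDX1 from 0.24 to 0.0041 and the median of the protein-coding hosts there from 0.28 to 0.03. The cause was not tested. Without counts, the precision of low FPKM values cannot be given.

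The labels give no pairing by replicate number. Deviations of same-numbered libraries correlated at 0.03, -0.31 and -0.13 in the siEXOSC3 table and at -0.01, 0.38 and 0.37 in the siDDX1 table, where replicates 2 and 3 were most like the scramble library of their own number and replicate 1 was not. Since this did not hold for every pair, the numbers were not taken to pair the libraries. With the replicate number as a block, siDDX1 calls rose to 1893 of all genes, 6 hosts, 5 other noncoding hosts, 21 protein-coding hosts, 3 snoRNP genes and 1 decay factor. The hosts added were Snhg1, Snhg6, Snhg12 and Gas5, with adjusted p-values of 0.0427, 0.0279, 0.0206 and 0.0477. With the block, siEXOSC3 calls among protein-coding hosts fell to 1.

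At an adjusted p under 0.01, siEXOSC3 calls were 1349 of all genes, 2 hosts, 1 other noncoding host and 0 protein-coding hosts, snoRNP genes and decay factors. For siDDX1 they were 183 of all genes, 1 other noncoding host and 0 hosted RNAs. With no filter on low FPKM, siDDX1 calls were 717 of all genes, and siEXOSC3 calls were 1 protein-coding host and 0 snoRNP genes. Centring on the median or dropping the trend also left 1 protein-coding host in siEXOSC3. In siDDX1, 2 snoRNP genes were called with quantile normalization and 3 with centring.

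Leaving out 1 library gave ranges of siEXOSC3 calls of 1610 to 4887 for all genes, 3 to 5 for the hosts, 2 to 8 for other noncoding hosts, 0 to 4 for protein-coding hosts, 0 to 9 for snoRNP genes and 0 to 8 for decay factors. For siDDX1 they were 158 to 3524, 2 to 6, 0 to 6, 0 to 26, 1 to 3 and 0 to 3 in the same order, and 0 to 1 for Scarna13.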
